A study of Homo sapiens with 20 samples.

Results

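Neural crest transcription factors were followed through the differentiation of human neural progenitors into neurons. The group was fixed by name and comprised 10 genes, namely MSX1, MSX2, PAX3, PAX7, TFAP2A, TFAP2B, FOXD3, SNAI1, SNAI2 and TWIST1. All 10 were found among the 20237 coding gene records (38369 records with the lincRNAs), each in 1 record that carried no other gene symbol. The cells were neural progenitors made from the human embryonic stem cell line H1 and grown with FGF on Matrigel until day 0. FGF, a mitogen for progenitors, was then withdrawn and BDNF, a neurotrophin, was added. The base medium and its supplements were changed at the same step, so effects of these changes cannot be told apart. Polyadenylated RNA was taken on day 0, on days 1, 2 and 4 before the replating described next, and on days 5, 11 and 18 after it. There were 3 cultures for each day and 2 for day 5, where the submitters had set 1 culture aside. All groups share 1 cell line, and the cultures of days 5, 11 and 18 had been replated on Poly-D-lysine and laminin at day 4.

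The neural crest is an embryonic population that forms where the neural plate meets the future epidermis, leaves the dorsal neural tube by an epithelial-to-mesenchymal transition and gives rise to peripheral neurons, glia, pigment cells and facial mesenchyme. Its transcription factors act in tiers. MSX, PAX and AP-2 factors define the border of the neural plate, FOXD3 marks crest before it migrates, and the Snail factors and TWIST1 drive the transition. Several of them have a second life inside the central nervous system, since PAX3 and PAX7 pattern the dorsal neural tube and AP-2 factors are found in some dorsal interneurons.

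The files hold 1 FPKM value (a count of fragments made relative to the size of the transcript and the depth of the library) per record and day. It was estimated over all cultures of that day. No spread between cultures could therefore be given, no difference below has a replicate check, and no test was run. Neighbouring values in any order of levels cannot be told apart by their error. Fold changes are differences in log2(FPKM + 0.1), a scale that understates the change of low genes, and a gene is counted as higher or lower from a 2-fold difference. The counts are set beside the share of the 14107 coding records at or above a mean of 0.1 FPKM that differed as much. FOXD3 lay below that mean and the other 9 members lay above it. The total FPKM of all records went from 413978 at day 0 to 251156 at day 18. The median log2 change of the 11793 coding records expressed at a mean of 1 FPKM or more was -0.60 between these days. A change is called recentred when this median, or that of the days in question, has been taken off. The number of fragments behind each value is unknown. As these are bulk samples, fewer cells that express a gene and less RNA per cell cannot be told apart.

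The 10 genes divided into a pair of abundant factors that were present throughout and a pair that started low and was higher late. A further 4 were lower on every day after day 0, and 2 stayed low. On day 0 the order of FPKM was PAX3, TFAP2B, SNAI2, SNAI1, TWIST1, PAX7, MSX2, MSX1, TFAP2A and FOXD3. On day 18 it was TFAP2B, PAX3, TFAP2A, PAX7, SNAI2, TWIST1, SNAI1, MSX1, FOXD3 and MSX2. PAX3 and TFAP2B held 73.9% of the summed FPKM of the 10 genes on day 0 and 92.6% on day 18. The sum of SNAI1, SNAI2 and TWIST1 went from 17.0 to 1.16 over the same time. MSX1, MSX2 and FOXD3 stayed below 1 FPKM on every day.

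**Figure D1:**
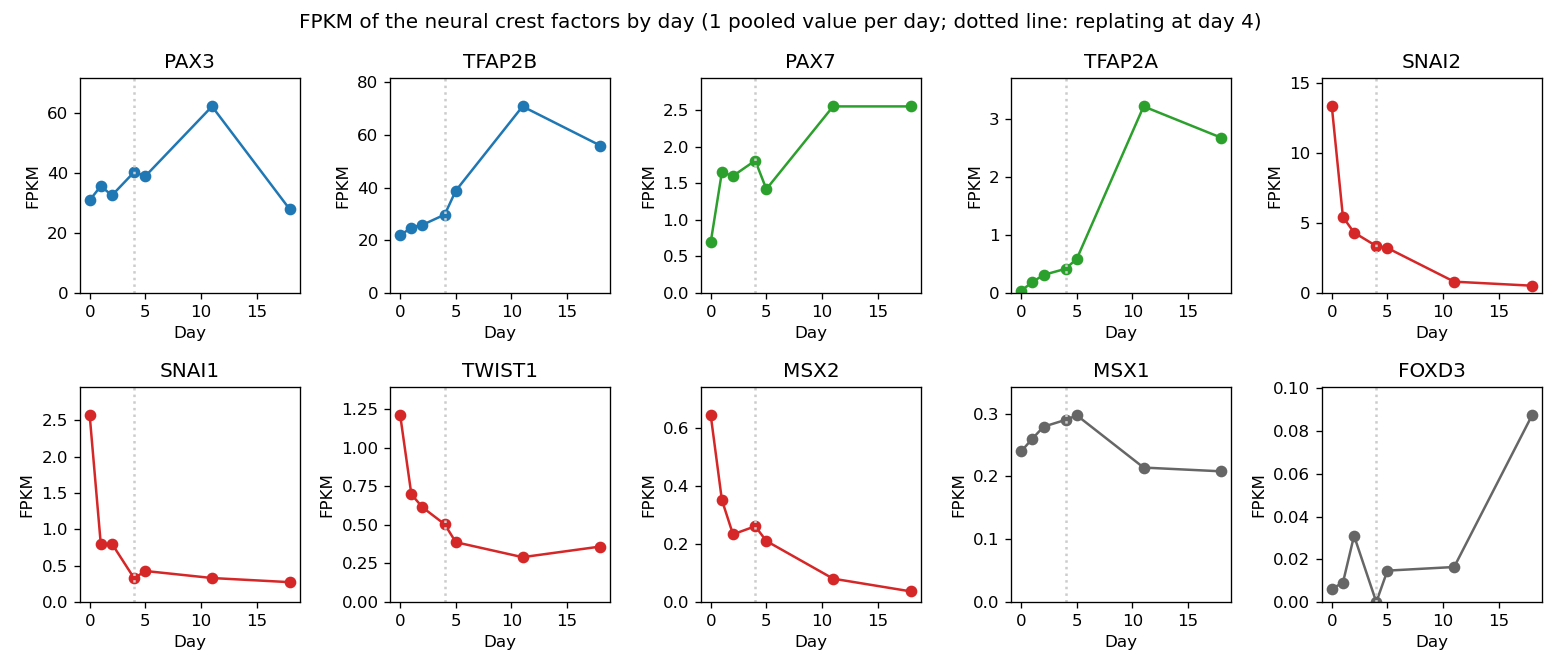
FPKM (vertical axis, linear, from 0, with its own range in each panel) of the 10 genes against the day of differentiation, 1 pooled value per day and no error bars, with a dotted line at the day of replating. PAX3 and TFAP2B peak at day 11 (62.3 and 70.9), SNAI2 steps down from 13.3 to 0.525, and FOXD3 stays below 0.1.

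Border and dorsal neural tube factors are described first. PAX3 (chromosome 2, 223064607 to 223163700, minus strand, hg19) encodes a paired box and homeodomain protein. Its FPKM was 31.0 on day 0, 35.7 on day 1, 32.6 on day 2, 40.4 on day 4, 39.0 on day 5, 62.3 on day 11 and 27.9 on day 18. The level was thus highest on day 11, and day 18 was the lowest of all days. The log2 change between days 5 and 11 was 0.67, and between days 11 and 18 it was -1.16. From day 0 to day 18 it was -0.15 in the deposited values and 0.45 when recentred, so the direction over the whole course depended on the scaling.

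PAX7 (chromosome 1, 18957500 to 19075359, plus strand), the paralog of PAX3 with a similar place in the dorsal neural tube, was far lower. Its FPKM was 0.697, 1.65, 1.60, 1.81, 1.42, 2.55 and 2.55 over the 7 days in order. Every later day lay above day 0. The log2 change was 1.14 by day 1 and 1.73 by day 18, or 2.33 when recentred. PAX3 exceeded PAX7 44.5-fold in FPKM on day 0, 21.6-fold on day 1 and 10.9-fold on day 18, and the share of PAX7 in the sum of both went from 2.20% to 8.37%.

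Paralogs can share reads, which bears on such ratios. In the most similar 100-base window of the coding sequences, a length near that of the reads, PAX3 and PAX7 differed at 7 positions, and the longest identical run in it was 22 bases (33 bases anywhere in the coding sequences). These windows, which lie in the second coding exon, which encodes part of the paired domain, follow with the differing bases in capitals. They come from GENCODE on GRCh37, at chr2:223161762-223161861 on the minus strand for PAX3 and chr1:18960868-18960967 on the plus strand for PAX7.
PAX3: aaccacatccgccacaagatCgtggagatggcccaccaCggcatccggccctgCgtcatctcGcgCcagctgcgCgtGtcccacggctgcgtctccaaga
PAX7: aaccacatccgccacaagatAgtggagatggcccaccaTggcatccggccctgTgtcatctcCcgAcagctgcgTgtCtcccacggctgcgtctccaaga

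The AP-2 factors moved in the same direction from very different levels. TFAP2B (chromosome 6, 50786439 to 50815325, plus strand), which is known from sympathetic precursors and from inhibitory interneurons of the hindbrain and cerebellum, had an FPKM of 21.9, 24.9, 25.9, 29.8, 38.9, 70.9 and 56.0 over the 7 days in order. It was higher at each step up to day 11 and lower at the last. The log2 change from day 0 to day 18 was 1.35, or 1.95 when recentred. Its rank among the 20237 coding records went from 3602 on day 0 to 621 on day 18.

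TFAP2A (chromosome 6, 10396917 to 10419797, minus strand), which acts early in crest and epidermis, was close to absent in the progenitors. Its FPKM was 0.0415, 0.189, 0.312, 0.418 and 0.592 on days 0, 1, 2, 4 and 5, then 3.21 on day 11 and 2.67 on day 18. The first 5 days lay below 1 and the last 2 days above it. The change from day 0 to day 18 was 4.29 on the log2(FPKM + 0.1) scale, the largest increase among the members, and 2.26 of it came between days 5 and 11. The FPKM of days 0, 1 and 2 rests on few fragments, as the deposited table marks the first pair of steps (days 0 to 1 and 1 to 2) as having too few alignments to be tested. TFAP2B exceeded TFAP2A 528-fold on day 0, 65.8-fold on day 5 and 21.0-fold on day 18.

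The most similar 100-base coding windows of TFAP2A and TFAP2B differed at 14 positions. The longest identical run in these windows was 30 bases, and anywhere in the coding sequences it was 31 bases. They lie in the last coding exon of both genes, at chr6:10398751-10398850 (minus strand) and chr6:50810893-50810992 (plus strand) of GRCh37, and are printed with differing bases in capitals because the ratio of these genes changed most.
TFAP2A: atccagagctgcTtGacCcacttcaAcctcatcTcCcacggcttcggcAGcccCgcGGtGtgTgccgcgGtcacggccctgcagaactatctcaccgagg
TFAP2B: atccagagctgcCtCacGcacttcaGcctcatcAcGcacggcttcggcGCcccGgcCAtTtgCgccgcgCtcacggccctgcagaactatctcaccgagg

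**Figure D2:**
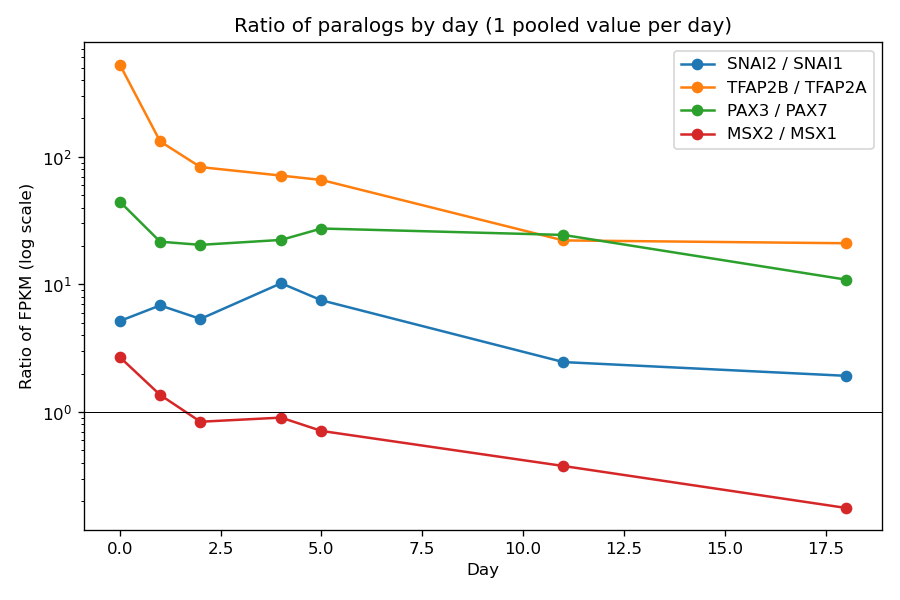
Ratio of FPKM within each of the 4 pairs of paralogs (vertical axis, log scale) against the day of differentiation, from 1 pooled value per gene and day, with a line at a ratio of 1. TFAP2B over TFAP2A narrows from 528 to 21.0, and MSX2 over MSX1 crosses from 2.69 to 0.177.

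Promoter sequences were available from RefSeq for 7 of the 10 members (windows of 250 bases before to 50 after a transcription start, table build GRCh38.p14), and each window matched GRCh37 at a single place. TFAP2A has entries for 2 starts. The windows were searched for CAGGTG or CACCTG, the E-box that Snail factors bind, for GCCNNNGGC, an AP-2 motif, and for TAATTG or CAATTA, a homeodomain motif. Each pair of words covers both strands, and the AP-2 motif reads the same on either. Of 35116 windows in the table, 20.6% held the E-box, 23.2% the AP-2 motif and 7.38% the homeodomain motif. Among the members, the only match was a homeodomain motif at -44 from the start of TFAP2B. That start lies 145 bases inside the TFAP2B record. The motif and the last 145 of the 250 bases printed below thus lie within the span of the record, not upstream of it. The TFAP2B window was also poor in CG dinucleotides, with 5 against a median of 14 in the table and 18 in each window of TFAP2A. The 250 bases before the start of TFAP2B (window chr6:50786334-50786633, plus strand, GRCh37) and of the first start of TFAP2A (window chr6:10419843-10420142, minus strand, GRCh37) are shown as the paralogs with the steepest late increases. Capitals mark the motif.
TFAP2B: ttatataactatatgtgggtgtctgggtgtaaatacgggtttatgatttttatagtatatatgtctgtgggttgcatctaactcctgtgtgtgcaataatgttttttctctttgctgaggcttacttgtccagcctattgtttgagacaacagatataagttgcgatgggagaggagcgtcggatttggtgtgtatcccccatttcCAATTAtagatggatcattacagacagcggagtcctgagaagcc
TFAP2A: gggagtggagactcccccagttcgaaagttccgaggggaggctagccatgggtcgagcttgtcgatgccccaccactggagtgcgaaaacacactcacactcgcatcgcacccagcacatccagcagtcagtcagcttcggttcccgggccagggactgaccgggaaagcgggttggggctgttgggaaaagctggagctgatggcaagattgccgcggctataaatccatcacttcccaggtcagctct

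The MSX genes, homeobox targets of BMP signalling at the border and in the roof plate, were low throughout. MSX1 (chromosome 4, 4861392 to 4865658, plus strand) had an FPKM between 0.208 on day 18 and 0.297 on day 5, a range of 1.43-fold. Its direction from day 0 to day 18 depended on the scaling, since the log2 change was -0.14 in the deposited values and 0.46 when recentred. MSX2 (chromosome 5, 174151575 to 174157901, plus strand) had 0.645 on day 0, 0.353 on day 1, 0.234 on day 2, 0.262 on day 4, 0.211 on day 5, 0.0809 on day 11 and 0.0368 on day 18. All days after day 0 lay below it. The log2 change over the whole course was -2.45, or -1.85 when recentred. MSX2 exceeded MSX1 2.69-fold on day 0, whereas MSX1 exceeded MSX2 5.66-fold on day 18. For both, the table marks the step between days 11 and 18 as having too few alignments to be tested. Their most similar 100-base coding windows, in the exon that encodes the homeodomain, differed at 15 positions. The longest identical run was 17 bases in these windows and 28 bases anywhere in the coding sequences.

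These MSX windows lie at chr4:4864478-4864577 for MSX1 and chr5:174156212-174156311 for MSX2 (GRCh37, both on the plus strand), again with differing bases in capitals, and are printed because the order of this pair turned over.
MSX1: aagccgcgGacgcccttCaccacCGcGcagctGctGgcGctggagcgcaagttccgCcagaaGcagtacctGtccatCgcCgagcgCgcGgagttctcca
MSX2: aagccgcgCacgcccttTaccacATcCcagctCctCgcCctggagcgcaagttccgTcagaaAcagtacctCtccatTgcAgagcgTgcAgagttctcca

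FOXD3 (chromosome 1, 63788730 to 63790797, plus strand), a forkhead factor of premigratory crest and of pluripotent cells, was barely detected. Its FPKM was 0.00617, 0.00908, 0.0310, 0, 0.0147, 0.0164 and 0.0873 over the 7 days in order. The deposited table marks all 6 steps of this record as having too few alignments to be tested, so no fold is given for it. The value on day 18 was the highest listed.

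The members that drive the epithelial-to-mesenchymal transition, namely SNAI1, SNAI2 and TWIST1, had their highest level in the progenitors. SNAI2, a zinc finger repressor of epithelial genes, had an FPKM of 13.3 on day 0, 5.42 on day 1, 4.31 on day 2, 3.35 on day 4, 3.21 on day 5, 0.812 on day 11 and 0.525 on day 18. It was lower than on the day before at all 6 steps, which held for 3.54% of the 14107 coding records. Most of the difference in FPKM between day 0 and day 18, 61.6%, was present by day 1. The log2 change was -1.28 by day 1, -1.86 between days 5 and 11 and -4.42 over the whole course, or -3.82 when recentred. In FPKM, day 0 exceeded day 18 25.2-fold. The record of SNAI2 spans 49830239 to 49833988 of chromosome 8 on the minus strand.

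SNAI1 (chromosome 20, 48599527 to 48605418, plus strand), the other Snail repressor studied, had 2.57 on day 0, 0.793 on day 1, 0.803 on day 2, 0.327 on day 4, 0.428 on day 5, 0.331 on day 11 and 0.274 on day 18. Day 0 stood apart from all later days, and 77.4% of its difference from day 18 was present by day 1. The log2 change was -1.58 by day 1, -1.08 between days 2 and 4 and -2.83 over the course, or -2.24 when recentred. SNAI2 exceeded SNAI1 5.16-fold on day 0, 10.2-fold on day 4 and 1.92-fold on day 18. The most similar 100-base coding windows of these genes differed at 23 positions, and the longest identical run anywhere in the coding sequences was 11 bases.

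TWIST1 (chromosome 7, 19155093 to 19157295, minus strand), a basic helix-loop-helix factor of cranial mesenchyme, had 1.21, 0.699, 0.614, 0.504, 0.388, 0.291 and 0.360 over the 7 days in order. Its level was highest on day 0 and lowest on day 11. The log2 change from day 0 to day 18 was -1.51, a difference of more than 2-fold that was no longer reached when recentred (-0.91). The TWIST2 paralog was at 0.109 on day 0 and at most 0.0617 later.

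Counts over the members were then set against all coding records. From day 0 to day 1, 2 of the 9 members compared were at least 2-fold higher (PAX7 and TFAP2A) and 2 lower (SNAI1 and SNAI2), against 4.61% and 3.68% of coding records. With a pseudocount of 1 only 1 of these 4 passed and with a limit of 3-fold 0 did, and the values of TFAP2A at this step rest on few fragments, as given above. After recentring, the members' counts were again 2 and 2, and the shares were 6.00% and 2.62%. Between days 1 and 2 no member passed in either direction, against 0.269% higher and 0.298% lower. Between days 2 and 4, 1 member was lower (SNAI1) and 0 were higher, against 1.11% and 0.184%. Across the replating (days 4 and 5), 0 members passed, against 0.432% higher and 0.106% lower.

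From day 5 to day 11, 1 member was at least 2-fold higher (TFAP2A) and 1 lower (SNAI2), against 2.56% and 4.57% of coding records. After recentring, 2 were higher, as TFAP2B then reached 1.03, and the shares were 3.81% and 3.26%. From day 11 to day 18, PAX3 was lower and 0 members were higher, against 3.54% lower and 1.66% higher. After recentring, PAX3 no longer passed (-0.88), and the shares were 1.36% and 3.30%. Over the whole course, day 18 against day 0, 3 members were higher (PAX7, TFAP2A and TFAP2B) and 4 lower (MSX2, SNAI1, SNAI2 and TWIST1), against 10.6% and 28.2%. After recentring, 3 were higher and 3 lower, against 19.3% and 12.1%. The median change of the 9 members was -0.15 and that of the 14107 records -0.52.

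**Figure D3:**
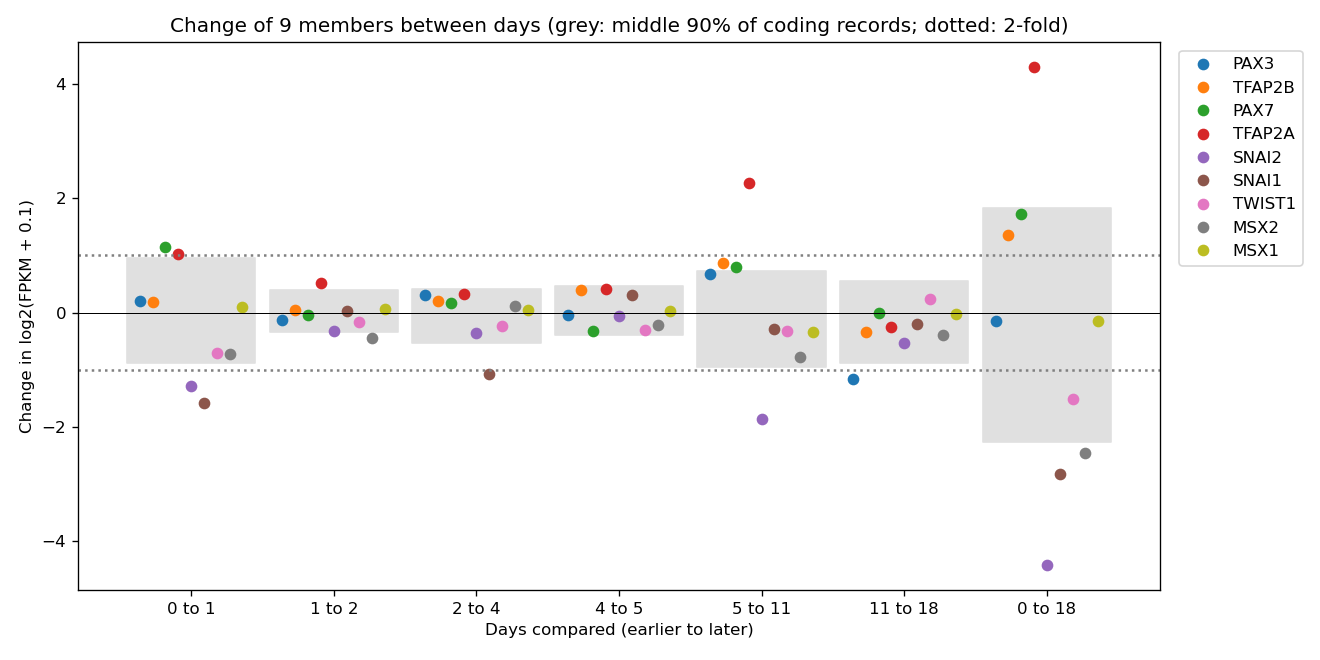
Change in log2(FPKM + 0.1) of the 9 members compared (points, vertical axis) for each pair of days (horizontal axis), from pooled values without error bars, with the middle 90% of the 14107 coding records in grey and dotted lines at 2-fold. From day 0 to day 1, SNAI1 and SNAI2 lie below the grey range (-0.89 to 0.96) and PAX7 and TFAP2A above it, and TFAP2A (2.26) and SNAI2 (-1.86) lie far outside that of days 5 to 11 (-0.95 to 0.72).

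The frequency of such differences varied with the level of a record. Among the 2314 coding records with mean values of 0.1 to 1, 9.77% were at least 2-fold higher and 6.70% lower from day 0 to day 1. Among the 6246 records with a mean of at least 10 the shares were 1.57% and 2.55%. MSX1, MSX2, SNAI1 and TWIST1 belong to the lower class, PAX7, TFAP2A and SNAI2 to the class of 1 to 10, and PAX3 and TFAP2B to the upper one. From day 0 to day 18 the order was turned for lower values. At least 2-fold higher were 26.1% of records in the lower class, 12.3% in the class of 1 to 10 and 3.39% in the upper class, to which TFAP2B belongs. At least 2-fold lower were 19.6% in the lower class (that of MSX2, SNAI1 and TWIST1), 25.7% in the class of 1 to 10 (that of SNAI2) and 33.7% in the upper class.

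Exons of 6 members were shared with a lincRNA record on the opposite strand, so that reads of both cannot be told apart unless counting used strand. The methods name default options for mapping and for quantification and state no setting for strand. The shared part was 100% of the exon bases of TFAP2A, SNAI2 and TWIST1, 96.9% for TFAP2B, 88.2% for SNAI1 and 39.6% for FOXD3. The FPKM of the opposite record was between 5.97% and 8.44% of that of TFAP2B, between 1.37% and 8.20% of that of SNAI2, and between 1.74% and 6.50% of that of SNAI1. It was at most 13.8% of that of TWIST1 and 32.5% of that of TFAP2A, the latter on day 0. For FOXD3 it reached 810%, since linc-FOXD3-AS (0.251 on day 2) exceeded FOXD3 itself. Adding the opposite record to the member turned the direction of no member's change from day 0 to day 18.

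Some neighbours on the chromosome were expressed as well. The lincRNA record linc-SGPP2 starts 15435 bases from PAX3 on the other strand and had an FPKM of 2.17 on day 0, 8.25 on day 11 and 4.64 on day 18, so that it too was highest on day 11. The record linc-IL17A-2, 9588 bases from TFAP2B on the same strand, had 2.81 on day 0, 4.01 on day 11 and 10.2 on day 18, a course unlike that of TFAP2B. CCDC140, whose record overlaps that of PAX3 without shared exon bases, stayed between 0.135 and 0.298.

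The coding records whose course was most like that of a member were found by Pearson's r of log2(FPKM + 0.1) over the 7 days, among 5189 records with a single symbol, a mean of at least 1 FPKM and a log2 range of at least 1. They are given for the 5 members with a mean of at least 1. These r values describe pooled days that share 1 course of differentiation. For PAX3 the nearest were LGR4 (0.935), CRABP1 (0.925) and FZD7 (0.923), and no record exceeded 0.95. CRABP1, a retinoic acid binding protein, had 346 on day 0, 711 on day 11 and 290 on day 18. For PAX7 the nearest included WNT7A (0.993) and HES5 (0.981), and 32 records exceeded 0.95. HES5, a Notch effector of neural progenitors, went from 1.95 on day 0 to 14.2 on day 1 and 29.5 on day 11.

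For TFAP2A the nearest were CUX2, GPC2 and PHF21B (all 0.995), and for TFAP2B they were BAHCC1 (0.997), ACCN2 (0.994) and SATB1 (0.994). These were picked from many alike, as 277 records exceeded 0.95 for TFAP2A and 160 for TFAP2B. CUX2 had 1.20 on day 0, 2.48 on day 5 and 4.36 on day 11. For SNAI2 the nearest were CTSC (0.999), GPD2 (0.998) and TMOD3 (0.998), in a course that was more common still, as 1093 records exceeded 0.95. CTSC went from 42.6 on day 0 to 4.78 on day 18. Among the members themselves, r was 0.99 for MSX2 with SNAI2 and 0.98 for TFAP2A with TFAP2B.

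The name of the group was checked against other genes of the crest. SOX10, which defines migrating crest and its glia, did not exceed 0.165 FPKM (0.0472 on day 0 and 0.111 on day 18). SOX10 and FOXD3 were thus both near 0 while PAX3 and TFAP2B were abundant, and the members are described here as genes, not as signs of a crest population. The counts for this and the lists that follow are to be read against the 10.6% of coding records that were at least 2-fold higher and the 28.2% that were lower on day 18 than on day 0 (19.3% and 12.1% when recentred). Of 21 further crest genes, 16 were compared, and 6 were at least 2-fold higher and 3 lower on day 18 than on day 0, with a median log2 change of -0.10. When recentred the counts were again 6 and 3 and the median was 0.49. NGFR, a receptor of crest cells that neurons also carry, had 0.709 on day 0, 3.80 on day 1, 15.2 on day 4 and 13.1 on day 18. EDNRB, an endothelin receptor, had 3.24 on day 0, 12.3 on day 1 and 18.5 on day 18. SOX9, an early crest factor shared with glia, had 7.25 and 34.8 on the first and last days. ETS1, which acts with the Snail factors in cranial crest, went from 37.1 to 0.547, and CDH6, a cadherin of early crest, from 59.6 to 8.01.

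Partners and targets of the Snail and Twist factors were then examined. Of 16 factors and markers of the transition, 12 were compared, of which 0 were at least 2-fold higher and 3 lower, with a median of -0.64. When recentred, 0 were higher and 2 lower, with a median of -0.04. The count of 3 in 12 was near the share of all coding records that were lower. CDH1, the epithelial cadherin that Snail factors repress, stayed at or below 0.0292 on every day. CDH2, the cadherin of neural cells, had 167 on day 0 and 123 on day 18. ZEB1 had 18.8 on day 0, 26.5 on day 11 and 17.5 on day 18, and ZEB2 had 25.5, 28.4 and 18.1. Both are repressors with a similar role to that of SNAI1, and both were highest on day 11. FN1, fibronectin, went from 77.4 on day 0 to 12.7 on day 18. TCF12, an E protein that pairs with TWIST1, was at 86.6 on day 0, 107 on day 11 and 73.3 on day 18.

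Most genes of mesenchymal derivatives were lower late, as SNAI2, SNAI1 and TWIST1 were. Of 17 such genes, 13 were compared, 0 were at least 2-fold higher and 8 were lower at day 18 (7 when recentred), with a median of -1.73 (-1.13 when recentred). Their summed FPKM was 708, 418, 460, 297, 337, 143 and 84.9 over the 7 days in order. The sum was thus higher on day 2 than on day 1, and on day 5 than on day 4. Most of the sum on day 0 came from TAGLN and COL3A1. TAGLN, an actin-binding protein of smooth muscle, had 367 on day 0, 106 on day 1 and 226 on day 2. It had 92.4 on day 4, 147 on day 5, 21.9 on day 11 and 19.4 on day 18. On the first and last days COL3A1 had 238 and 30.5, RUNX2 7.02 and 0.175 and THY1 15.7 and 2.25. The other 5 genes compared stayed within 2-fold, namely SOX5 (6.93 and 7.46), SOX6 (0.700 and 0.859), PRRX1 (0.117 and 0.164), PDGFRA (27.3 and 16.4, in a record that carries a second symbol) and ACTA2 (a log2 change of -0.93). DCN stayed at or below 0.108. COL1A1 was listed at 0 on every day, whereas COL1A2 had 33.6 on day 0 and 3.81 on day 18. Whether COL1A1 RNA was absent or its record was not quantified was not tested. The part of mesenchymal cells in the course of SNAI2, SNAI1 and TWIST1 was not tested.

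The cell cycle genes followed the same direction. All 12 were at least 2-fold lower on day 18 than on day 0, with a median of -2.36 (also 12 when recentred, with a median of -1.76), and their summed FPKM was 1112 on day 0, 657 on day 1 and 218 on day 18. Whether fewer dividing cells account for any member's level was not tested. The neural progenitor genes were mostly between the limits, with 3 of 11 higher, 1 lower and a median of -0.36. When recentred, 4 were higher and 0 lower, with a median of 0.24. SOX2, a core progenitor factor, had 126 on day 0 and 66.1 on day 18.

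Genes of peripheral neurons were set beside TFAP2A, TFAP2B and PAX7. Of 15 genes, 10 were compared, 7 were higher and 1 lower at day 18, with a median of 2.13. When recentred, 8 were higher and 1 lower. POU4F1, a factor of sensory neurons and of some central ones, had 2.29 on day 0, 18.7 on day 5, 41.7 on day 11 and 24.4 on day 18. TLX3, found in sensory and dorsal spinal neurons, had 1.11 on day 0, 6.79 on day 5 and 17.7 on day 11. NEUROG2, a proneural factor, had 0.693 on day 0 and 19.4 on day 11. The general neuron genes had 8 of 12 higher, 1 lower (8 and 0 when recentred) and a median of 1.41. STMN2, a protein of growing axons, had the largest increase of these, with 32.3 on day 0 and 727 on day 18. NEFL was the lower gene, with 153 and 68.1. NEFM (179 and 108), GAP43 (193 and 173) and TUBB3 (382 and 502, in a record with other symbols) stayed within 2-fold.

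Genes of Schwann cells and melanocytes, the glial and pigment cells of the crest, showed no common direction. Of 11 genes with a record, 9 were compared, 1 was higher and 3 were lower, with a median of -0.21. After recentring 2 were higher, 0 were lower and the median was 0.39. TYR, the enzyme that defines pigment cells, did not exceed 0.0265.

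Signals known to act on the members were mixed as well. Of 18 such genes 17 were compared, with 5 higher, 5 lower and a median of -0.41. When recentred, 6 were higher and 3 lower, with a median of 0.19. BMP4, which induces MSX genes, had 0.971 on day 0, 0.996 on day 1, 1.30 on day 2 and 0.241 on day 18. BMP7 had 21.8, 26.0, 25.3 and 9.57 on the same days. Among ID genes, inhibitors of helix-loop-helix factors such as TWIST1, ID3 went from 44.8 on day 0 to 10.5 on day 1 and 0.921 on day 18, whereas ID1 went from 1.58 to 11.5 and ID2 from 3.18 to 19.0. TGFB1, an inducer of Snail factors, had 8.06 on day 0, 7.11 on day 1, 8.95 on day 2 and 0.902 on day 18. TGFB2 had 2.02 on day 0 and 3.45 on day 18.

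**Figure D4:**
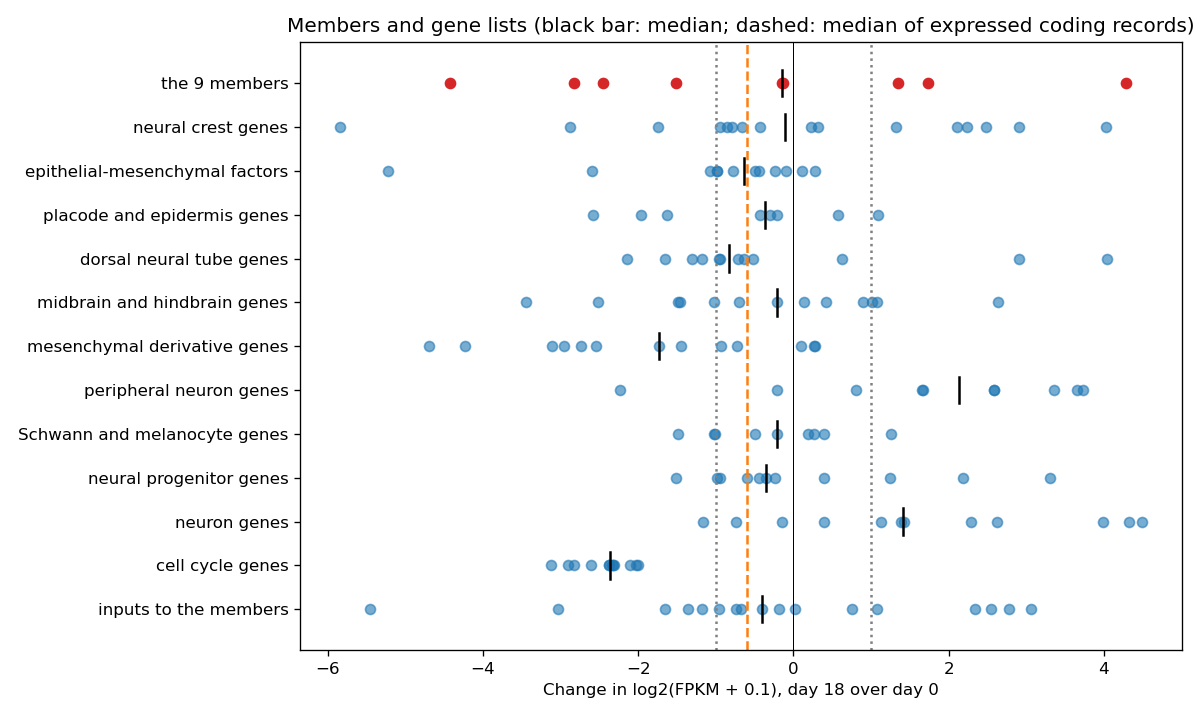
Change in log2(FPKM + 0.1) from day 0 to day 18 (horizontal axis) of the 9 members compared (red) and of the genes of 12 lists (blue), 1 point per gene, with black bars at the medians, dotted lines at 2-fold and a dashed line at the median of expressed coding records (-0.60). The members spread from -4.42 to 4.29, mesenchymal and cell cycle genes lie mostly to the left (medians -1.73 and -2.36), and peripheral neuron genes mostly to the right (median 2.13).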

How the data were processed

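Polyadenylated RNA of 20 cultures was sequenced. Reads were mapped by the submitters with TopHat2 against hg19, as their processing notes list, and the methods name Cufflinks for assembly and Cuffdiff2 for quantification. Versions are not given in the sources used here. The FPKM values deposited by the authors hold 1 value per record and day, pooled over cultures, and the number of columns of single samples was 0. A second deposited table gave gene symbols, exon positions and the words that say whether a record had enough alignments for a test. Its fold changes, statistics, p-values and q-values for adjacent days are the authors' own comparisons and were not used.

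Members, gene lists and thresholds were chosen with earlier results of these data known. Per symbol, the coding record with the highest mean FPKM was kept. Changes were differences in log2(FPKM + 0.1) over coding records at a mean of 0.1 FPKM or more, counted from 2-fold, and the counting was tested on simulated data. Named genes were the 10 members, genes of the 12 lists (first those with the largest changes) and the 3 records most like each member with a mean of at least 1. Protein sequences were not used here, and some genes that this rule would name are not reported here. Promoters came from RefSeq (GRCh38.p14; 7 of 10 members matched) and coding sequences from GENCODE version 44 lifted to GRCh37. Python 3.11.15, numpy 2.4.6 and pandas 2.3.3 were used.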

Additional observations from a re-analysis of the deposited data

How the results depend on the processing

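No paired analysis was possible because the files hold 1 pooled value per day, and leaving out single replicates was not run for the same reason. The counts of members and of listed genes with at least a 2-fold difference were recomputed under 9 alternatives, and 32 of the 36 values stayed within 1.5 times the count reported. With a pseudocount of 1, 1 member rather than 4 passed from day 0 to day 1, and with 3-fold as the limit 0 did. With 1.5-fold as the limit, 6 members rather than 2 passed from day 5 to day 11. With a minimum mean FPKM of 1, which only 5 of the 10 members reach, 4 rather than 7 passed from day 0 to day 18. Among the 137 listed genes compared, 82 passed from day 0 to day 18, with a range of 60 to 105 over the alternatives.

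For the change of single members from day 0 to day 18, 48 of 60 alternative values kept their direction and their side of 2-fold, and none of the members that passed turned its direction. Of the other 12 values, 4 were those of FOXD3, which lay below the minimum mean. PAX3 and MSX1, which did not pass, turned direction when recentred on the median (0.45 and 0.46) and when each day was scaled to the same total (0.57 and 0.37). TWIST1 was at -0.91 and -0.90 under these scalings and at -0.70 with a pseudocount of 1, where MSX2 was at -0.67. Adding the record on the opposite strand was chosen after the data had been seen. The pooled values allow no statement on the spread between cultures at any depth.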

Other observations

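Regional genes of the neural tube, where PAX3 and PAX7 are normally expressed, were also examined. Of 19 genes of the dorsal neural tube, 12 were compared, 2 were at least 2-fold higher and 4 lower on day 18 than on day 0, with a median log2 change of -0.83. Less the median change of expressed records, 3 were higher and 2 lower and the median was -0.23. For all coding records the shares were 10.6% higher and 28.2% lower, or 19.3% and 12.1% when recentred in this way. LMX1B, a LIM homeobox gene of the roof plate and of dorsal spinal and serotonergic neurons, had an FPKM of 1.19 on day 0, 7.40 on day 5, 17.2 on day 11 and 21.1 on day 18. RSPO3, a Wnt agonist, had 0.0131 on day 0 and 0.747 on day 18. ZIC1 had 11.0 and 7.68 and GLI3 26.6 and 16.2 on these days. The 4 lower genes were BMP4, BMP5, BMP7 and ZIC5, with log2 changes of -1.65, -2.14, -1.18 and -1.31. When recentred, BMP4 (-1.05) and BMP5 (-1.54) were still at least 2-fold lower. LMX1A did not exceed an FPKM of 0.0757. WNT1 and ATOH1, markers of the dorsal midline and of rhombic lip progenitors, did not exceed 0.00952 and 0.113.

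Of 16 genes of the midbrain and hindbrain, 13 were compared, 3 were higher and 5 lower, with a median of -0.21. When recentred the balance turned over, with 5 higher, 2 lower and a median of 0.39. EN2 and GBX2, which pattern the midbrain-hindbrain region, had 22.2 and 51.9 on day 0 and 7.84 and 18.8 on day 18. IRX3 had 10.0 and 18.7. PAX2, a paired box gene of dorsal inhibitory interneurons, was listed at 0 on day 0 and had 0.172 on day 11 and 0.525 on day 18. Placode and epidermis genes, which share AP-2 factors with the crest, had 8 of 14 compared, 1 higher, 3 lower and a median of -0.36 (2 higher, 3 lower and a median of 0.24 when recentred). SIX4 had 1.97 on day 0 and 0.429 on day 18, and GATA3 did not exceed 0.0121.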
